A study of Mus musculus with 2 samples.

Results

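The MHC class I presentation and immunoproteasome genes are 10 genes of the 32285 features counted in both libraries: H2-K1, H2-D1, B2m, Tap1, Tap2, Tapbp, Psmb8, Psmb9, Psmb10 and Nlrc5. They were chosen by name, with earlier results of these data known, and all 10 were found and described. Droplet-based single-cell RNA-Seq was run on YFP+ 7AAD- cells sorted from spleens of 7-day-old C57BL/6J mice, with 1 library from WT mice and 1 from KO (Zfp335fl/flFoxp3-Cre) mice. In the KO mice the floxed Zfp335 gene, which encodes a zinc finger transcription regulator, is removed by a Cre recombinase driven from Foxp3, the defining gene of regulatory T cells (Tregs). The study's controls carry the same Foxp3-Cre allele, so both groups share Cre and the YFP reporter. The number of mice behind each library was not given in the sources used here. Each genotype was therefore measured once and no p-value is given. Every interval is a 95% interval that covers counting error only, not the difference between mice.

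MHC class I molecules carry peptides from inside the cell to its surface, where CD8 T cells read them. H2-K1 and H2-D1 encode the classical heavy chains and B2m the shared light chain; the proteasome cuts proteins into peptides, TAP1 and TAP2 form the pump that moves these into the endoplasmic reticulum, and tapasin (Tapbp) holds the empty heavy chain beside the pump. Psmb8, Psmb9 and Psmb10 encode the catalytic subunits that replace Psmb5, Psmb6 and Psmb7 in the immunoproteasome. Interferons are known to raise most of these genes, and NLRC5 is the transactivator that acts at class I promoters.

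Of 14524 WT and 18134 KO barcodes, 8053 and 13767 passed 300 detected genes with no more than 5% of UMIs (unique molecular identifiers, 1 per captured molecule) from mitochondrial genes. The kept KO barcodes were shallower, with a median of 2713 UMIs against 5061. Zfp335 itself was at 8.17 CPM (UMIs per 1000000 UMIs of the class) in WT and 0.798 in KO T-lineage barcodes, so its level followed the labels, and Foxp3 was at 40.6 and 44.4 CPM. The libraries had 29 barcode sequences in common among the kept ones. Clustering without the members or interferon-stimulated genes gave 15 clusters, of which 10 held T cell receptor genes; classes are called by their marker genes with "-like", and those without a clear name by cluster number. The resting Treg-like class, led by Dapl1 and Slfn5, held 2290 WT and 4808 KO barcodes of similar depth (medians of 4186.5 and 3765 UMIs) and is used as the main comparison. Other lineages made up 525 WT and 674 KO barcodes. An effector-like class (Klrg1, Ccl5, Cxcr3) was nearly all WT, with 1880 barcodes against 120.

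Most of these genes lie close together. On GRCm38 with GENCODE release 21, Tapbp (chr17:33915899-33929292), H2-K1 (chr17:33996017-34000347), Psmb9 (chr17:34181987-34187764), Tap1 (chr17:34187553-34197225), Psmb8 (chr17:34197721-34201454), Tap2 (chr17:34203527-34216321) and H2-D1 (chr17:35262730-35267499) are all on chromosome 17. Psmb9 and Tap1 run in opposite directions and their annotated ends overlap by 212 bp, and Psmb9 to Tap2 spans 34335 bp. B2m (chr2:122147686-122153083) is on chromosome 2, and Nlrc5 (chr8:94434356-94527272) and Psmb10 (chr8:105935735-105938444) are on chromosome 8.

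Upstream sequence is shown for the light chain and the heavy chains, because their promoters share an element. In resting barcodes, however, their RNA levels differed by unlike amounts between the libraries. RefSeq promoters of the GRCm38.p6 build matched 8 of the 10 genes, and 250 bases before each start site were searched on both strands for 4 short motifs. Capitals mark every match: a palindromic kappa B site (the first run of capitals in H2-K1), a pair of GAAA runs 2 bases apart (the core of an interferon-stimulated response element), TGACG (the core of a CREB site) and CCAAT, which reads ATTGG on the other strand. These motifs do not overlap each other in the stretches printed. The H2-K1 stretch lies at chr17:34000349-34000468 on the minus strand and the B2m stretch at chr2:122147538-122147648 on the plus strand.
H2-K1: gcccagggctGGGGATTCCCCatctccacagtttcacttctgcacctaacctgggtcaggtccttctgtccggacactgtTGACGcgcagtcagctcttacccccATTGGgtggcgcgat
B2m: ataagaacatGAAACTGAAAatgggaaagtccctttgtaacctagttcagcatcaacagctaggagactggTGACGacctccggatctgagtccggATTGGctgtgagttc

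The kappa B palindrome was found before H2-K1 and H2-D1 among the 8 genes, and before H2-Q6, another class I gene. It was present in 10 of all 32851 promoters (0.0304%). The exact GAAA pair was found before B2m alone among the 8 genes, and in 2.98% of all promoters. Variants of this pattern were not searched, so a missing match does not show that the other genes lack such an element. TGACG stood before 5 of the 8 genes and 17.8% of all promoters, and CCAAT before 6 of the 8 and 33.8% of all. The windows of Tap1 (chr17:34187306-34187555) and Psmb9 (chr17:34187331-34187580) overlap. Both genes share the same TGACG site and the same CCAAT site, which were counted for each. In H2-K1, H2-D1 and B2m, TGACG was followed after 20 bases by ATTGG, at -41, -101 and -78 from the start site; this spacing was noticed in the sequences and then counted, and it was present in 30 promoters of 32851 (0.0913%). The pair of sites corresponds in order to the X2 and Y boxes known from MHC promoters, and the 30 bases are set beside each other here to show the boxes of heavy and light chain genes in register. They lie at chr17:34000359-34000388 (minus strand), chr17:35262993-35263022 and chr2:122147609-122147638 (plus strand).
H2-K1: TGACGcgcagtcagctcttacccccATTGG
H2-D1: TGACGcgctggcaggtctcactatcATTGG
B2m: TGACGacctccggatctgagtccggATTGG
Of 9 other class I genes with an entry, H2-M3 alone had the spaced pair. A match in these windows is a description of letters and says nothing about binding in these cells.

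In resting Treg-like barcodes all 10 genes had a higher level in the KO than in the WT library, by 1.07-fold (Nlrc5) to 1.56-fold (B2m), and 9 of the 10 intervals lay above 1. A ratio of at least 1.5 was reached by B2m, Tap1 and Tapbp, 3 of 10, where 2.8% of the 10355 genes with at least 50 UMIs reached it; none of the 10 was lower by the same factor, as 10.6% of all genes were. The median of the 10 log2 ratios was 0.40, beside -0.09 over all genes. Thinned to 1000 UMIs, the median WT barcode held 6 UMIs of the 10 genes and the median KO barcode 7.

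**Figure D1:**
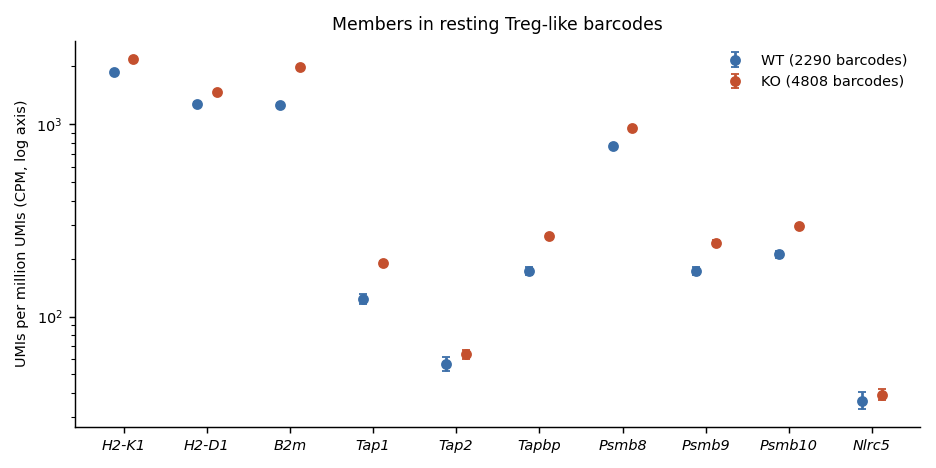
CPM (log axis) of the 10 genes in resting Treg-like barcodes of the WT (2290 barcodes) and KO (4808 barcodes) library; points are levels and bars their exact Poisson 95% intervals. KO lies above WT for every gene, with B2m, Tap1 and Tapbp farthest apart and Nlrc5 with overlapping intervals.

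In resting barcodes the light chain and the heavy chains differed by unlike amounts. B2m was at 1260 CPM in the WT and 1967 CPM in the KO library, a ratio of 1.56 (1.53 to 1.59). At 1000 UMIs per barcode, 70.5% of WT and 83.2% of KO resting barcodes had a B2m UMI; late erythroid-like barcodes (cluster 10), which should hold little class I RNA, had one in 25.3% and 39.4% (median depths of 4361 and 3353 UMIs). H2-K1 was at 1864 and 2173 CPM, a ratio of 1.17 (1.15 to 1.19). H2-D1 was at 1272 and 1471 CPM, a ratio of 1.16 (1.13 to 1.18). Both heavy chains were therefore higher in KO by less than the light chain, and the H2-K1 to B2m ratio was 0.75 times (0.73 to 0.77) its WT value. For H2-D1 to B2m the factor was 0.74 (0.72 to 0.76), while H2-K1 to H2-D1 stayed at 1.01 times (0.98 to 1.04). Heavy-chain genes share sequence: 8.79% of the 50-base words of the longest H2-K1 transcript and 14.3% of those of H2-D1 occur in transcripts of other genes, chiefly H2-D1, H2-Q1 and H2-T23 for the former and H2-Q1, H2-Q7 and H2-Q6 for the latter, while B2m shared none. In the last 500 bases of the transcript the share was 0.443% for H2-K1 and 9.53% for H2-D1, so H2-D1 is the less certain of the 2.

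The peptide transporter genes split. Tap1 was at 123 CPM in WT and 189 CPM in KO, a ratio of 1.53 (1.44 to 1.63). Its partner Tap2, next but 1 on the chromosome, was at 56.7 and 63.8 CPM, a ratio of 1.12 (1.02 to 1.24). The Tap1 to Tap2 ratio was 1.36 times (1.21 to 1.53) higher in KO resting barcodes. Tapbp, the tapasin gene, was at 173 and 263 CPM, a ratio of 1.52 (1.44 to 1.60), close to that of Tap1.

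All 3 immunoproteasome subunit genes were higher in KO resting barcodes, below 1.5-fold. Psmb8 was at 770 CPM in WT and 956 CPM in KO, a ratio of 1.24 (1.21 to 1.27). Psmb9 was at 173 and 242 CPM, a ratio of 1.40 (1.33 to 1.48), and Psmb10 at 211 and 296 CPM, also 1.40-fold (1.33 to 1.47). Their constitutive counterparts were higher too: Psmb5 by 1.27-fold, Psmb6 by 1.18-fold and Psmb7 by 1.14-fold. Against its counterpart each subunit behaved differently, with Psmb8 to Psmb5 at 0.98 times its WT value (0.93 to 1.04), Psmb9 to Psmb6 at 1.18 (1.10 to 1.27) and Psmb10 to Psmb7 at 1.22 (1.12 to 1.34). These gene pairs compare UMIs between libraries and not the number of subunits in a proteasome.

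Nlrc5 was low in both libraries. It was at 36.6 CPM in WT and 39.4 CPM in KO resting barcodes, a ratio of 1.07 (0.95 to 1.22), an interval that includes 1. At 1000 UMIs per barcode 3.76% of WT and 3.97% of KO barcodes had an Nlrc5 UMI. Late erythroid-like barcodes had one in 0% of 83 (which allows up to 4.35%) and in 3.53% (1.31 to 7.52%) of 170, so at this depth the per-barcode share of Nlrc5 could not be told from background.

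Depth moved some of these ratios. Within resting barcodes of 1000 to 2000, 2000 to 4000, 4000 to 8000 and 8000 to 16000 UMIs, B2m stood at 2.23, 1.56, 1.55 and 1.67-fold. Psmb9 went from 3.59 in the shallowest barcodes to 1.06 (0.90 to 1.25) in the deepest, and Psmb8 from 1.99 to 1.08 (1.00 to 1.17). The shallowest range held 60 WT barcodes and the deepest 92, so both ends are thin. In the same class, RNA of other lineages was present: the erythroid marker list summed to 521 CPM in WT and 1019 in KO, the neutrophil list to 343 and 232, the B cell list to 198 and 141, the macrophage list to 2.73 and 2.99, and the dendritic list, which contains the interferon-stimulated gene Bst2 and has Xcr1 and Itgax at 0 in both, to 177 and 282. Their part in the ratios was not tested.

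Across all T-lineage barcodes, 2 of the 10 genes, B2m and Tap1, reached 1.5-fold (6.22% of 12225 genes did) and the median log2 ratio was 0.33, beside -0.07 over all genes. Tap2 was at 58.5 CPM in WT and 56.5 in KO, a ratio of 0.96 (0.92 to 1.02). This total mixes classes in different proportions, so the classes are described separately.

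**Figure D2:**
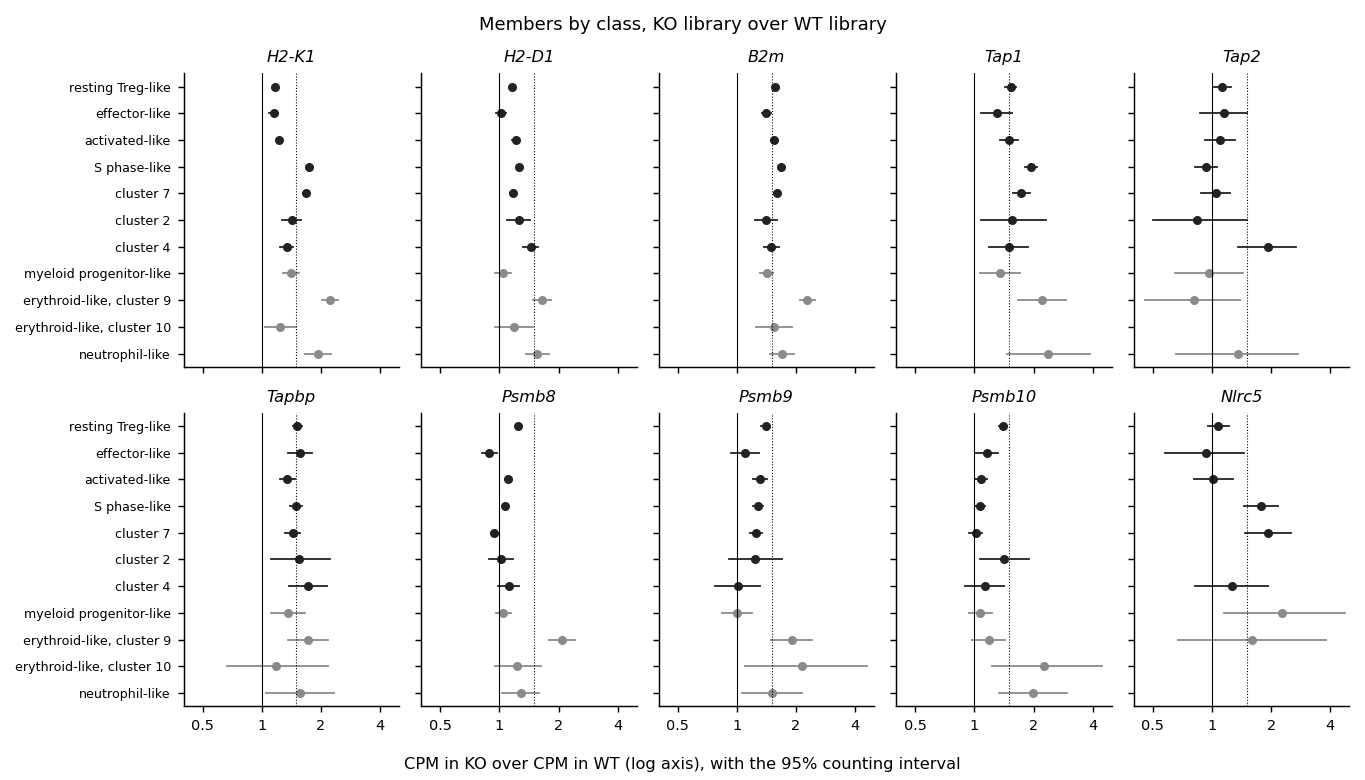
Ratio of CPM in the KO library to CPM in the WT library (log axis) for each gene in 11 classes; black marks T-lineage classes, grey other lineages, bars are 95% counting intervals, the solid line is 1 and the dotted line 1.5. Values with fewer than 10 UMIs in either library are not drawn. B2m lies to the right of 1 in every class, whereas Psmb8 lies left of 1 in effector-like and cluster 7 barcodes. T-lineage RNA was not subtracted from the other lineages.

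In each of the 11 classes with at least 50 barcodes in both libraries, B2m was higher in KO, by 1.40-fold (cluster 2) to 2.28-fold (erythroid-like, cluster 9). Tapbp was too, by 1.18-fold to 1.72-fold, and H2-K1, H2-D1 and Tap1 also had ratios above 1 in each class. These ratios include T-lineage RNA present in the classes of other lineages, described below. With that share subtracted, B2m was at 1.73-fold in cluster 9 and at 0.98-fold in neutrophil-like barcodes. H2-K1 depended on the class. It was 1.15-fold (1.09 to 1.21) in effector-like, 1.23-fold in activated-like, 1.73-fold (1.69 to 1.77) in S phase-like and 1.67-fold (1.62 to 1.72) in cluster 7 barcodes, which carried effector and mitosis markers. Relative to the resting class, its KO to WT ratio was 1.49 times larger in S phase-like barcodes (1.44 to 1.53). The other heavy chain differed less, with H2-D1 at 1.26-fold in S phase-like and 1.17-fold in cluster 7 barcodes, and its ratio in S phase-like barcodes was 1.09 times that in the resting class (1.05 to 1.13). The H2-K1 to B2m ratio was thus 1.03 times its WT value (1.00 to 1.07) in S phase-like and 1.04 times (0.99 to 1.09) in cluster 7 barcodes. For H2-D1 to B2m the factors were 0.75 (0.72 to 0.78) and 0.73 (0.69 to 0.76). The makeup of these classes also differed between the libraries, since effector markers summed to 4955 CPM in WT and 1517 CPM in KO S phase-like barcodes, and to 6966 and 2360 CPM in cluster 7. What part that had in the H2-K1 difference was not tested.

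Tap1 reached its highest T-lineage ratio in S phase-like barcodes, where it was at 124 CPM in WT and 242 CPM in KO (1.95-fold, 1.81 to 2.09), while Tap2 was at 0.93 (0.82 to 1.06) there. The Tap1 to Tap2 ratio was thereby 2.09 times (1.80 to 2.42) its WT value in S phase-like barcodes. Nlrc5 was higher in the same classes, at 1.77-fold (1.45 to 2.17) in S phase-like and 1.93-fold (1.48 to 2.52) in cluster 7 barcodes, against 1.01 (0.81 to 1.28) in activated-like ones. In the background, 8.39% of genes in S phase-like and 9.53% in cluster 7 barcodes were at least 1.5-fold higher, and 4 of the 10 members were in each. Median depths were 15098.5 UMIs in WT and 9258 in KO S phase-like barcodes, and 11117 and 7163 in cluster 7. The part of depth, and of the makeup described above, in the Tap1, Tap2 and Nlrc5 ratios was not tested.

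Psmb8 was the gene whose direction turned. It was higher in KO resting (1.24-fold), activated-like (1.11-fold) and S phase-like (1.07-fold) barcodes but lower in effector-like ones, at 893 CPM in WT and 795 CPM in KO (0.89, 0.82 to 0.97), and in cluster 7 (0.94, 0.90 to 0.98). The effector-like value rests on 120 KO barcodes, in which CD8 or NK cell markers summed to 548 CPM against 163 CPM in WT. Psmb10 was 1.16-fold in effector-like and 1.02-fold (0.94 to 1.09) in cluster 7 barcodes.

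The shallow clusters 2 and 4 had wider intervals. Cluster 2, which was mostly KO (166 WT and 4607 KO barcodes) and carried globin RNA, had Tap1 at 1.55-fold (1.08 to 2.30) and Tapbp at 1.55-fold (1.11 to 2.22), 2 of 10 past the fold, which is near the 20.8% of all genes that were. Tap2 was at 0.84 (0.50 to 1.51) and Psmb8 at 1.02 (0.89 to 1.17) there. Cluster 4, mostly WT (1403 and 341 barcodes), had Tapbp at 1.72-fold (1.38 to 2.15) and was the class in which Tap2 differed most, with 66.1 CPM in WT and 127 CPM in KO (1.92-fold, 1.36 to 2.68), again 2 of 10 where 6.35% of genes passed. H2-D1 was at 1.44-fold (1.32 to 1.58) there, and Psmb9 at 1.01-fold (0.78 to 1.31). Cluster 4 is led by nuclear and ribosomal RNA-like transcripts such as Gm26917 and Gm42418.

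Within the WT library the effector-like class had slightly more of most of these genes than the resting class, and 0 of the 10 reached 1.5-fold, where 9.08% of all genes did. Of the 10, 8 had an interval above 1, led by Psmb10 (1.35-fold), Tap2 (1.21-fold) and Psmb9 (1.20-fold), and H2-K1 (0.94) and Nlrc5 (0.85) were lower. In the KO library none had an interval above 1 and 3 lay below it, with Psmb8 lowest of these (0.83, 0.76 to 0.90). Tap2 (1.24), Tapbp (1.12) and Psmb10 (1.12) had KO ratios above 1, with intervals that include 1. The KO effector-like class held 120 barcodes against 1880 in WT, so its intervals are wider. Its CD8 or NK cell markers summed to 548 CPM against 163 CPM in WT. Activated-like barcodes, marked by Tnfrsf9 and Nefh, had less: the heavy chains and B2m were at 0.72 to 0.78 of the resting level in WT and at 0.75 to 0.81 in KO, whereas Psmb8 was at 1.16 in WT and 1.04 in KO.

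In S phase-like WT barcodes the class I molecule genes were below the resting level and 3 immunoproteasome genes above it. H2-K1 was at 0.64 (0.62 to 0.65), H2-D1 at 0.83 (0.81 to 0.85) and B2m at 0.74 (0.72 to 0.76) of the resting level, and Nlrc5 was at 0.45 (0.38 to 0.55). Psmb9 was at 1.38 (1.29 to 1.47), Psmb8 at 1.25 (1.21 to 1.29) and Psmb10 at 1.13 (1.07 to 1.20). In cluster 7, which also carried mitosis markers, the heavy chains parted in WT, with H2-K1 at 0.81 (0.79 to 0.83) and H2-D1 at 1.03 (1.01 to 1.06). In KO S phase-like barcodes H2-K1 was at 0.95 (0.93 to 0.97) of the resting level, and at 1.04 or 1.02 when barcodes were averaged or thinned to 1000 UMIs.

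**Figure D3:**
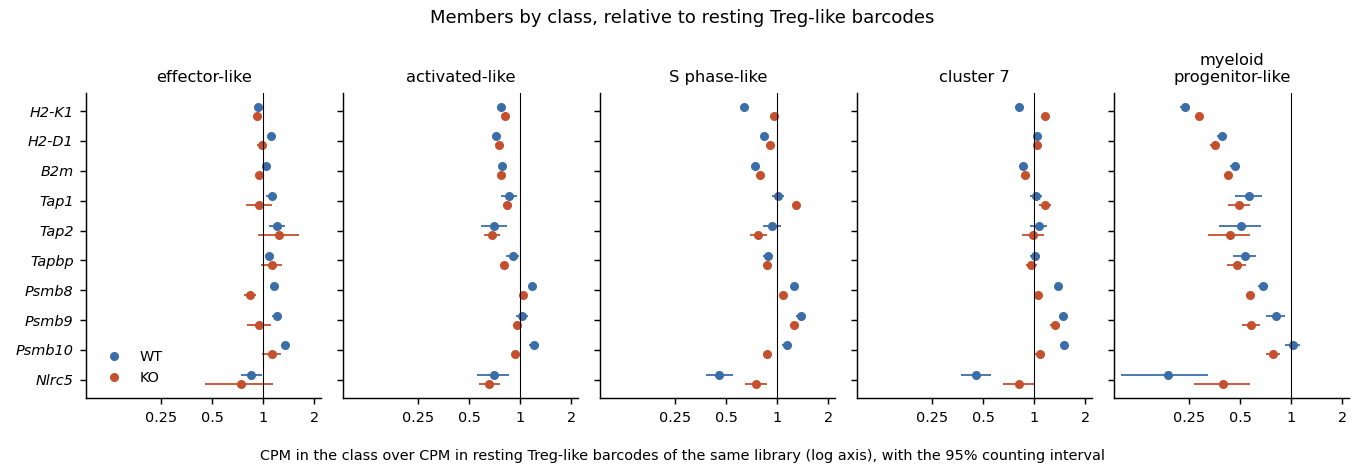
Level of each gene in 5 classes as a ratio to resting Treg-like barcodes of the same library (log axis), WT in blue and KO in red, with 95% counting intervals. Activated-like barcodes lie mostly below 1, immunoproteasome genes lie above 1 in S phase-like WT barcodes where H2-K1 and Nlrc5 lie far below, and myeloid progenitor-like barcodes lie below 1 for nearly every gene.

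The order of classes for H2-K1 in WT ran from resting (1864 CPM) through effector-like (1742 CPM) to cluster 4 (1514), cluster 7 (1512) and activated-like (1435) barcodes, whose intervals overlap those of their neighbours, then S phase-like (1190 CPM) and, far below, the other lineages (323 to 438 CPM). In KO it was led by cluster 7 (2523 CPM), ahead of resting (2173 CPM), with S phase-like, cluster 2, cluster 4 and effector-like barcodes (2062 to 2003 CPM) not separable from their neighbours. B2m in KO was highest in resting (1967 CPM) and effector-like (1856 CPM) barcodes, whose intervals overlap.

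The other lineages in the sort, which are not known to express Foxp3, had, as a whole, less of all 10 genes than resting barcodes of the same library, each by at least 1.5-fold, where 33.8% of all genes in WT and 34.8% in KO were lower by that much. Within the myeloid progenitor-like class fewer were that much lower, 7 of 10 in WT and 9 of 10 in KO, where 27.5% of all genes were in either library. Psmb10 was at 1.01 (0.91 to 1.13), Psmb9 at 0.81 and Psmb8 at 0.68 of the resting level in WT, and Psmb10 at 0.78 in KO. Between the libraries, 4 of 10 genes reached 1.5-fold in these lineages together (3.42% of 9072 genes did) and the median log2 ratio was 0.43, beside -0.12 over all genes. In erythroid-like barcodes of cluster 9, 9 genes had at least 50 UMIs and 7 of them reached 1.5-fold (7.09% of genes), with H2-K1 at 323 and 719 CPM (2.23-fold, 2.03 to 2.45) and Psmb8 at 132 and 274 CPM (2.08-fold, 1.79 to 2.43). Neutrophil-like barcodes had 7 of the 8 genes with enough UMIs past that fold (13% of genes), while myeloid progenitor-like barcodes had 0 of 9 (2.9% of genes).

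T-lineage RNA was present in the same barcodes and moved with these values. T cell receptor and CD3 markers with Cd4, taken as a list of 7 genes, stood in WT and KO erythroid-like barcodes of cluster 9 at 11.1% and 24.4% of their T-lineage level, and in neutrophil-like barcodes at 12.6% and 26.0%. Late erythroid-like barcodes had 22.9% and 22.7%, and there H2-K1 stood at 26.6% and 25.2% of its T-lineage level, which is near the share of the T markers and is read as background. Myeloid progenitor-like barcodes had similar T-marker sums in both libraries, 748 CPM in WT and 722 CPM in KO (11.6% of the T-lineage level in KO), and stood well above that share for B2m (51.1% and 48.0%). Their makeup differed, however, with neutrophil markers at 10549 CPM in WT and 3111 in KO, mast cell or basophil markers at 1557 and 225, and megakaryocyte markers at 162 and 14; the part of this in the ratios was not tested. B2m was at 584 CPM in WT and 828 CPM in KO there (1.42-fold, 1.31 to 1.53), H2-K1 at 438 and 617 CPM (1.41-fold, 1.29 to 1.54), and H2-D1 at 497 and 518 CPM (1.04-fold, 0.95 to 1.14). With the T-lineage share subtracted, an alternative chosen after seeing the data, the counts past 1.5-fold fell to 2 of 9 in cluster 9 (B2m at 1.73 and Tap1 at 1.58-fold) and to 1 of 8 in neutrophil-like barcodes (Tap1 at 1.60-fold), and in other lineages as a whole to 1 of 10 (Nlrc5, on 33 WT and 72 KO UMIs). The share of all genes past the fold after this subtraction was not computed, so these counts cannot be set against a background. B2m went from 1.69 to 0.98-fold in neutrophil-like barcodes. H2-K1 went from 2.23 to 1.46-fold in cluster 9 and from 1.93 to 0.81-fold in neutrophil-like barcodes. Psmb8 went from 2.08 to 1.21-fold in cluster 9 and from 1.28 to 0.18-fold in neutrophil-like barcodes. In myeloid progenitor-like barcodes B2m was then at 1.37-fold and H2-K1 at 1.43-fold.

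**Figure D4:**
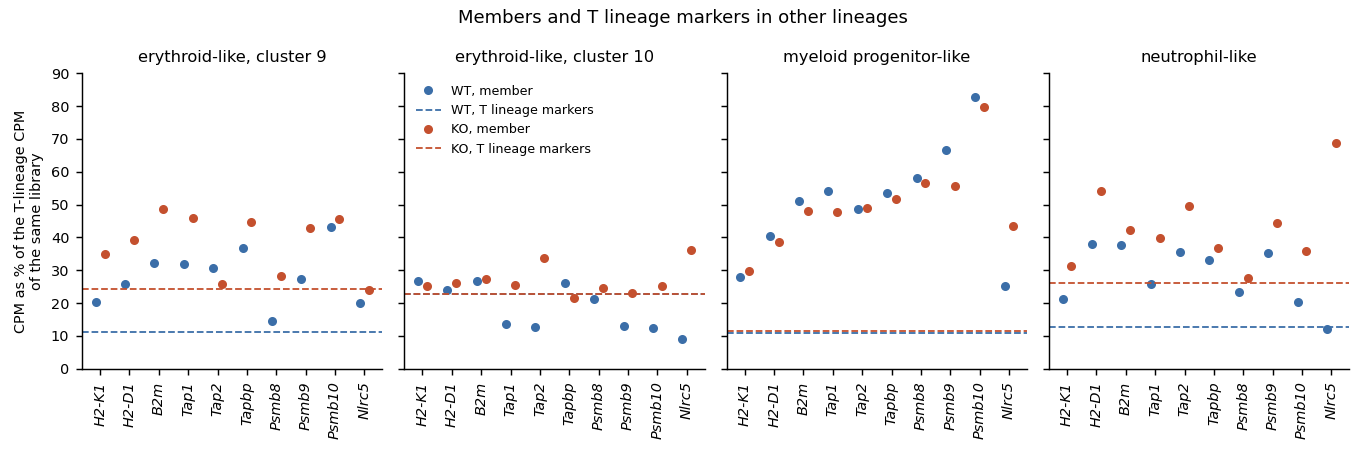
CPM of each gene in 4 other-lineage classes as a percentage of its T-lineage CPM in the same library (points), with the same percentage for 7 T-lineage markers (dashed lines), WT in blue and KO in red. The dashed lines coincide in myeloid progenitor-like and late erythroid-like barcodes and are about 2 times apart in cluster 9 and neutrophil-like barcodes.

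Interferon-stimulated genes were used to split resting barcodes further. At 1000 UMIs per barcode, 71.1% of WT and 46.4% of KO barcodes had no UMI of 15 such genes, and 7.57% and 25.9% had 2 or more. Where none was found, B2m was at 1213 CPM in WT and 1837 CPM in KO (1.51-fold, 1.43 to 1.60), almost as far apart as over the whole class. The other members in those barcodes were Tap1 at 1.31-fold (1.09 to 1.57), Tapbp at 1.27-fold (1.09 to 1.47), Psmb9 at 1.26-fold (1.08 to 1.47), Psmb10 at 1.22-fold (1.06 to 1.41), Psmb8 at 1.16-fold (1.08 to 1.25), H2-K1 at 1.14-fold (1.08 to 1.19), H2-D1 at 1.11-fold (1.05 to 1.17), Tap2 at 1.07-fold (0.81 to 1.42) and Nlrc5 at 0.97 (0.68 to 1.39), the intervals of the last pair including 1. A barcode without such a UMI at this depth can still hold undetected interferon-stimulated RNA.

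Within the KO library, barcodes with 2 or more of those UMIs had more of all 10 genes than barcodes with none. Tap1 stood at 1.84-fold (1.58 to 2.14), Psmb9 at 1.75-fold (1.53 to 2.00), Nlrc5 at 1.63-fold, Psmb10 at 1.62-fold and Psmb8 at 1.41-fold (1.31 to 1.51). B2m (1.24-fold, 1.18 to 1.30), H2-K1 (1.15-fold, 1.10 to 1.20) and H2-D1 (1.12-fold, 1.06 to 1.18) followed the split least. In WT, where 173 barcodes had 2 or more, Tap1 stood at 1.92-fold (1.32 to 2.72) and H2-K1 at 1.03-fold (0.92 to 1.16).

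**Figure D5:**
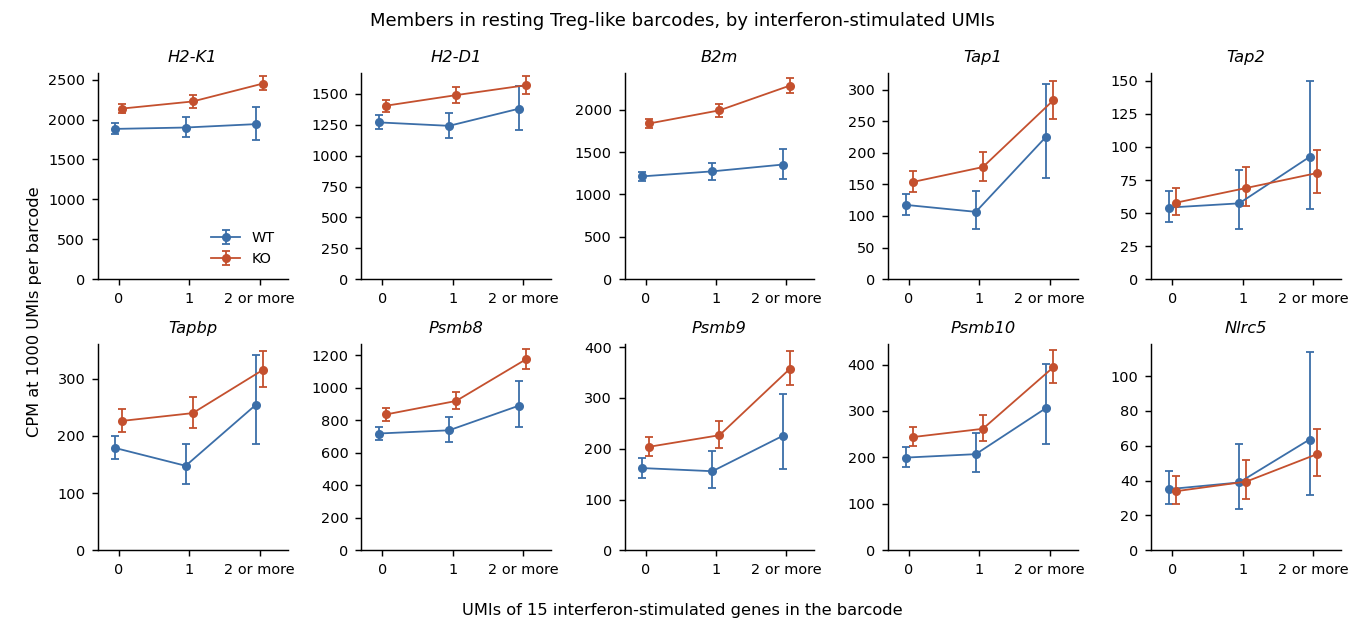
CPM of each gene in resting Treg-like barcodes thinned to 1000 UMIs, for barcodes with 0, 1 and 2 or more UMIs of 15 interferon-stimulated genes, WT in blue and KO in red, with exact Poisson 95% intervals. B2m is separated between the libraries in all 3 groups, and Tap1 and Psmb9 climb most, relative to their level at left, from left to right in KO.

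Neighbouring genes of the pathway were taken from lists and counted whole, with the same fold as the threshold. In resting barcodes 2.8% of all genes were at least that much higher and 10.6% that much lower. Of 8 other class I genes with enough UMIs in resting barcodes, 2 were at least 1.5-fold higher, H2-T23 (1.56-fold), which encodes Qa-1, and H2-T22 (1.51-fold), and 2 were lower, H2-Q6 (0.62) and H2-Q10 (0.60). None of 5 peptide-loading genes passed the fold in either direction, with the chaperone Calr at 1.40-fold and the trimming peptidase Erap1 at 0.87. Among 5 genes of proteasome activators and assembly, Psme2 was at 1.57-fold and Psme1, the other subunit of the interferon-inducible activator, at 1.37-fold, while Psme4 was at 0.64. Of 2 class II genes with enough UMIs, Cd74 was at 1.72-fold and H2-DMa at 2.41-fold.

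The list of interferon signalling genes and class I regulators held 5 of 24 genes at least 1.5-fold higher in KO resting barcodes, beside 2.8% of all genes, and 3 lower, which is near the 10.6% of all genes that were. Those higher were Socs1, a feedback inhibitor of JAK kinases (2.60-fold), Irf8 (2.51-fold), Irf7 (2.15-fold), Irf1, an activator of class I promoters (1.79-fold), and Stat2 (1.59-fold). Those lower were the type I interferon receptor gene Ifnar1 (0.59), Creb1 (0.62) and Nfya (0.58), the latter pair encoding proteins that bind CRE and CCAAT boxes. The RFX genes lay between 0.85 and 1.11. Of the 15 interferon-stimulated genes, 14 passed the fold upwards.

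Over 25 groups of barcodes, each a class within a library, the mean profile of the 10 genes was compared with 4157 genes by Pearson's r. Apart from the members, the highest were Sdf4 (0.95), Def6 (0.95), Tnip1 (0.95), Tmsb10 (0.94), Ifi47 (0.94), Itgb7 (0.94), Csk (0.94), B4galnt1 (0.94), Anxa6 (0.94) and Nmi (0.94). These groups come from 2 libraries and include low other lineages. Over the 17 T-lineage groups r was 0.90 for Ifi47, 0.80 for Def6, 0.72 for Tnip1 and 0.70 for Tmsb10. It was 0.56 for Itgb7 and B4galnt1, 0.54 for Csk, 0.26 for Sdf4, 0.19 for Anxa6 and -0.06 for Nmi. The T-lineage groups include cluster 15 of the WT library, a cluster led by the macrophage markers C1qb, C1qc, C1qa and Vcam1.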

How the data were processed

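The matrices deposited by the authors hold UMI counts that were not normalised; the submitters' processing notes name Cell Ranger 5.0.1 and the mm10 build. Barcodes were kept from 300 detected genes upwards if mitochondrial genes took no more than 5% of their UMIs, and no doublets were removed from the values reported. Counts were log-normalised, and 2000 variable genes, 30 components and Leiden clustering at a resolution of 0.5 (scanpy 1.11.5, igraph 0.11.9) gave the classes, with 239 genes left out, the members among them. Class names rest on marker lists. UMIs were summed by library and class and divided by the total. Ratios of levels carry exact conditional binomial intervals and levels exact Poisson intervals (scipy 1.17.1). Factors for gene pairs, and for KO to WT ratios compared between classes, carry intervals from a normal approximation on the log scale. The binomial intervals were checked on counts simulated with counting error only. Genes needed 50 UMIs over both libraries, and classes 50 barcodes in each. All 10 members were named, and the most similar genes were the 10 of highest correlation outside them. The members and lists were chosen with earlier results of these data known. The authors removed doublets by their own steps, which were not repeated. Alternatives left out barcodes with high doublet scores (5% of WT, 8% of KO), dropped the mitochondrial filter, required 500 genes, averaged barcodes, thinned them to 1000 UMIs, rescaled totals (edgeR 4.0.16 for TMM factors) or clustered at a resolution of 1.0.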

Additional observations from a re-analysis of the deposited data

Results flagged for a closer look

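Psmb8 differed in direction between classes. Its KO to WT ratio was 0.890 (0.817 to 0.968) in effector-like and 0.939 (0.902 to 0.979) in cluster 7 barcodes, whereas in 5 other classes its interval lay above 1, at 1.07 to 2.08. Relative to the resting class the ratio was 0.72 times as large (0.66 to 0.78) in effector-like and 0.76 times (0.72 to 0.79) in cluster 7 barcodes, with counting error alone in these intervals. The difference between classes was not tested, because each genotype has 1 library.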

How the results depend on the processing

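The median log2 KO to WT ratio of the 10 genes stayed above 0 in all 11 classes and in the pooled ones. This held under the alternatives run on each, except the T-lineage share subtraction. That left neutrophil-like barcodes with a median ratio of 0.98 (log2 -0.04) and could not give a median in late erythroid-like ones. Not every alternative was run on every class. The checks covered 160 gene values in T-lineage and 130 in resting barcodes, but 20 in each other class. In resting barcodes the median log2 ratio was 0.49 with median-of-ratios size factors, 0.49 with TMM factors and 0.24 within 8000 to 16000 UMIs, against 0.40. In T-lineage barcodes it was 0.39 with either scaling, and 0.37, 0.39 and 0.25 within 1000 to 2000, 2000 to 4000 and 4000 to 8000 UMIs, against 0.33. Without clusters 2, 4, 8, 13 and 15 it was 0.32. The ranges of depth and the left-out clusters were chosen after seeing the data. Between classes of the KO library, the median of activated-like over resting was -0.25 by the mean over barcodes against -0.31, and that of S phase-like over resting was -0.077 by that mean and -0.013 after thinning, against -0.17. Tap2 in T-lineage barcodes, at 0.96, was 1.01 after thinning or rescaling and 1.27 when classes were weighted as in WT. Nlrc5 in erythroid-like barcodes of cluster 9, at 1.59 with few UMIs, was 0.73 by the mean over barcodes. The causes were not tested. The count of all genes at least 1.5-fold higher depended on the minimum: in resting barcodes 290 at 50 UMIs, 156 at 200 and 2541 with none, and in T-lineage barcodes 761, 434 and 3097. No paired analysis was possible because each genotype has 1 library and the labels give no replicate numbers. Depth limits Nlrc5 and Tap2 most, above all in other lineages.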

Other observations

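Barcodes set aside for more than 5% mitochondrial UMIs, 6468 in WT and 4364 in KO with median depths of 1263 and 1361 UMIs, also held these genes. H2-K1 was at 1687 CPM in WT and 2744 CPM in KO there (1.63-fold, 1.59 to 1.66), and B2m at 837 and 1475 CPM (1.76-fold, 1.71 to 1.81). Tap1 was 1.78-fold (1.68 to 1.89), whereas Tap2 was 1.09-fold (0.99 to 1.20) and Nlrc5 1.01-fold (0.90 to 1.14). Among 10441 genes in these barcodes, 3.94% were at least 1.5-fold higher. The small B cell-like cluster, with 45 WT and 43 KO barcodes, was too small for ratios by the minimum used, and its B2m level was 657 CPM in WT and 1137 CPM in KO.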
